A study of Mus musculus with 6 samples.

Results

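Bone is removed by osteoclasts, which form from cells of the macrophage lineage under signals made largely by osteoblasts and other stromal cells. The cytokine RANKL (Tnfsf11) binds its receptor RANK (Tnfrsf11a) on osteoclast precursors, RANK signals through the adaptor TRAF6 (Traf6), and the secreted decoy receptor osteoprotegerin, or OPG (Tnfrsf11b), captures RANKL before it reaches RANK. Survival and proliferation of the precursors depend on the receptor tyrosine kinase CSF1R (Csf1r), which has a pair of ligands of unrelated sequence, CSF1 (Csf1) and IL-34 (Il34). These 7 genes were taken by symbol as the members of this axis. All 7 were found among the 23358 entries of the deposited table, and all 7 were abundant enough to be among the 16089 genes tested.

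The table holds RNA-seq counts of calvaria, the skull roof bones, from mice 2 to 3 days old. The bones had been digested for 20 minutes in collagenase and trypsin and frozen. There were 3 libraries labelled wild type (WT, Ezh2_WT_Osx) and 3 labelled Ezh2 conditional knockout (cKO, Ezh2_cKO-Osx). The WT libraries carry the numbers 14, 27 and 29 in their titles and the cKO libraries 8, 10 and 37, and values by library are given in that order. Ezh2 encodes the catalytic subunit of PRC2, which methylates histone H3 at repressed genes. Both group names hold Osx, also called Sp7, which encodes a transcription factor that osteoblasts need to form. The labels do not give the alleles, the driver of deletion, whether the WT mice carried it, or whether separate animals were used. The p-values therefore reflect variation among the 6 libraries, part of which may be technical.

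Gene counts summed to between 60449016 and 95439578 per library. Ezh2 itself was 20.9 ± 0.68 in WT and 19.9 ± 0.69 CPM in cKO, where CPM is the gene's count relative to the TMM-scaled library total (mean ± SD, n = 3 per group, log2 fold change -0.07 ± 0.07, adjusted p = 0.507). The deleted part of the gene is not given, so this count does not check the labels, and each direction below rests on them. Markers of the labelled tissue were abundant, the summed osteoblast and osteocyte markers lying between 99000 (cKO 37) and 180000 CPM (WT 29). Most of these sums came from the collagen genes Col1a1 (81400 ± 15800 CPM in WT, 57100 ± 11900 in cKO) and Col1a2 (61600 ± 9550 and 51800 ± 6800). The sums therefore say little about the rest of the list. Of the 13 osteoblast and osteocyte markers, 1 rose (Mepe) and 1 fell (Sp7), both named after their values were seen (15.4% called, against 12.4% of all genes). No osteoblast or osteocyte marker was called higher without WT 27, WT 29, cKO 10 or cKO 37, and none lower without WT 29, cKO 8, cKO 10 or cKO 37. Summed cartilage markers differed widely within both groups (2230 to 8300 CPM in WT, 792 to 6470 in cKO) and were lowest in cKO 37. Epidermal, skeletal muscle and erythroid markers summed to at most 10.2 CPM in any library, with Ivl at 0 in every library. Over the lymphoid, vessel, cartilage, epidermal, muscle and erythroid lists, 0 of 35 tested markers passed in edgeR, 3 had an unadjusted p under 0.05, and 3 passed in DESeq2 and 0 in limma voom. The neural list was not part of this count, and 1 of its 5 tested markers, Tubb3, fell (20% called).

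Of the 7 genes, Tnfrsf11b and Il34 rose in cKO, Csf1r fell, and the other 4 did not pass the threshold (edgeR quasi-likelihood test, Benjamini-Hochberg adjusted p under 0.05 over all tested genes). Over all 16089 genes the share called was 12.4%, with 5.96% higher and 6.45% lower. In 5 of the 7 the libraries of one group did not overlap those of the other, 2 higher and 3 lower, where 34.6% of all genes had no overlap (17.2% higher and 17.4% lower). Both receptors of the precursors, Tnfrsf11a and Csf1r, had lower values in every cKO library than in any WT library. The estimated changes were below 2-fold in all 7, although the interval of Tnfsf11 reaches further. In bulk tissue, fewer cells of a type and less RNA per cell cannot be told apart.

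**Figure D1:**
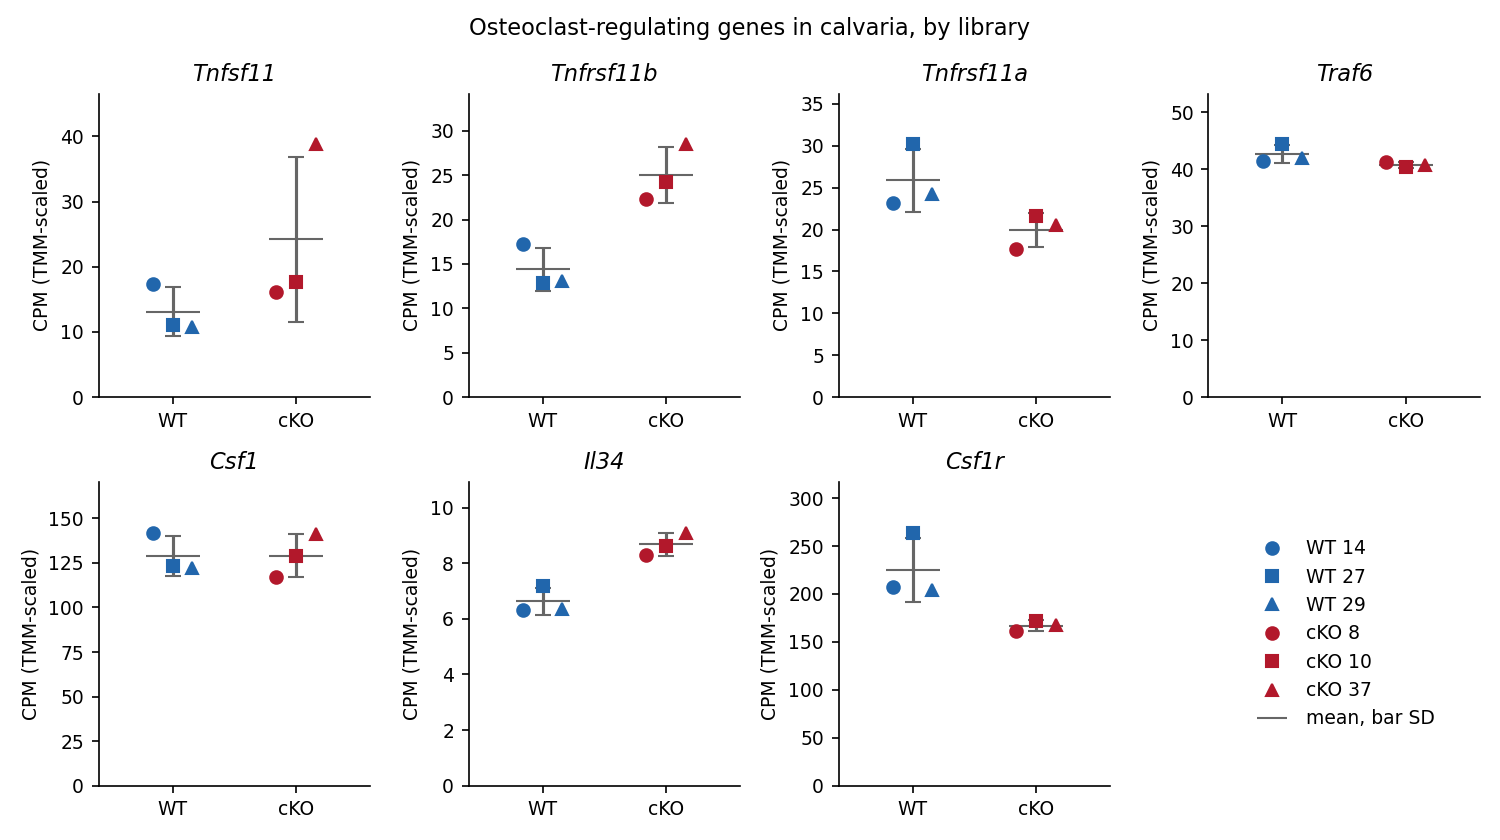
CPM (TMM-scaled) of each of the 7 genes in each library (vertical axis, linear from 0; blue WT, red cKO, 1 symbol per library), with the group mean as a horizontal mark and the SD as a bar (n = 3 per group). The groups do not overlap for Tnfrsf11b, Il34, Tnfrsf11a, Traf6 and Csf1r, and in Tnfsf11 the cKO 37 library stands at 38.8 against 10.7 to 17.7 in the other 5.

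Compared per length of transcript, on the RPKM scale deposited by the authors, Csf1r and Csf1 were far more abundant than the other 5 genes. Csf1r had the highest level of the 7, with a median of 36.2 RPKM over the 6 libraries (29.5 to 53.1), followed by Csf1 at 22.1 (18.7 to 24.4). Neither range overlapped the next. Below them came Traf6 (median 5.62 RPKM), Tnfsf11 (5.38), Tnfrsf11b (5.02), Tnfrsf11a (3.32) and Il34 (3.13), each overlapping its neighbour in this order. In WT alone, Tnfsf11 (4.32 ± 1.15 RPKM), Tnfrsf11a (3.85 ± 0.738) and Tnfrsf11b (3.79 ± 0.559) were near one another, and their order is not distinguishable from the spread between libraries.

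Tnfsf11 (chromosome 14, 78277446 to 78308043 in mm10), the ligand that drives osteoclast formation, was the most variable of the 7. It stood at 17.4, 11.1 and 10.7 CPM in WT (14, 27, 29) and at 16.2, 17.7 and 38.8 CPM in cKO (8, 10, 37). The value of cKO 37 was far above the rest, and WT 14 lay between the 2 lower cKO libraries. The mean difference was 1.87-fold, with an error that includes no change (log2 0.90 ± 0.46, 95% confidence interval -0.35 to 2.15, adjusted p = 0.294). Without cKO 37 the log2 difference was 0.38 ± 0.24 (adjusted p = 0.381), and without WT 14 it was 1.16 ± 0.53 (adjusted p = 0.3). Summed cartilage markers, at 2230, 8300 and 5000 CPM in WT (14, 27, 29) and 5960, 6470 and 792 in cKO (8, 10, 37), were lowest in each group in the library where Tnfsf11 was highest. Their part in the Tnfsf11 values was not tested.

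The RefSeq promoter table (GRCm38.p6, the mm10 assembly) held 4 of the 7 genes. Tnfrsf11b, Il34 and Csf1r, the genes that were called, were not among them, so the promoters below belong to genes that did not pass. PRC2 is known to act mainly at CpG-rich promoters, and the ligand and its receptor differ widely in this respect, so the 250 bases before their starts are shown 5′ to 3′ on the strand of the gene, with CpG pairs and TATA motifs in capitals. They lie at chr14:78308044-78308293 (minus strand) and chr1:105780473-105780722 (plus strand).
Tnfsf11: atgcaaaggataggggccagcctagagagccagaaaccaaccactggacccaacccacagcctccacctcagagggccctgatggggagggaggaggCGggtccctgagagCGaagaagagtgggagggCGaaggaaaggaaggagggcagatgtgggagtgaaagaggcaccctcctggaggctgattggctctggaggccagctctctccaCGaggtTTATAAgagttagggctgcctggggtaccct
Tnfrsf11a: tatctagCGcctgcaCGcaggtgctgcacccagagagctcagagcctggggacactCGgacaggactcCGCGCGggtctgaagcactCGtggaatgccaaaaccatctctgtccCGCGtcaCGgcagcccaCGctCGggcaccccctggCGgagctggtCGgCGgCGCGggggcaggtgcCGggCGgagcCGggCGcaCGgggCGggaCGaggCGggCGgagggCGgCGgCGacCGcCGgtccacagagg

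The Tnfsf11 window held 4 CpG pairs, more than 37.8% of the 32851 promoters in the table, and the Tnfrsf11a window 31, more than 94.8%. The median over all promoters was 6. Csf1 held 10 and Traf6 13 CpG pairs, more than 62.2% and 68.5%. The letters TATAA, searched on both strands, were found in Tnfsf11 alone of the 4, from 30 to 26 bases before the start and overlapping on the opposite strand, and 22.8% of all promoters held them. The AP-1 letters TGANTCA (6.75% of all promoters) and the CRE letters TGACGTCA (1.55%) were in none of the 4 windows, and the RUNX letters TGTGGT (14%) were in that of Traf6. The marks and factors at these promoters were not measured here.

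Tnfrsf11b (chromosome 15, 54250619 to 54278484), the decoy receptor that holds RANKL in check, was the clearest change among the 7. It stood at 17.2, 12.9 and 13.1 CPM in WT (14, 27, 29) and at 22.3, 24.2 and 28.5 CPM in cKO (8, 10, 37). The lowest cKO library was above the highest WT library, and cKO 37 was again the highest of all. The rise was 1.74-fold (14.4 ± 2.48 against 25 ± 3.17 CPM, n = 3 per group, log2 0.80 ± 0.13, adjusted p = 0.00832, 95% confidence interval 0.50 to 1.10). In each of 15 alternatives, leaving out every library in turn included, it passed, with log2 values from 0.68 to 0.95 and adjusted p from 1.69e-07 to 0.0367.

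The balance of RANKL and OPG is the usual summary of this arm, since OPG titrates RANKL. Tnfsf11 over Tnfrsf11b, as a ratio of RPKM, was 1.27, 1.08 and 1.03 in WT (14, 27, 29) and 0.914, 0.919 and 1.71 in cKO (8, 10, 37). A pair of cKO libraries was below every WT library and cKO 37 above every one, so the groups overlapped. On counts the log2 ratio was -0.17 ± 0.16 in WT and -0.16 ± 0.52 in cKO, a difference of 0.01 (n = 3 per group, two-sided exact permutation p = 1, where 0.1 is the smallest this design allows). Without cKO 37 the difference was -0.29 (two-sided exact permutation p = 0.2, the smallest p with 5 libraries), so its direction rests on that library. A rise of OPG was thus not accompanied by a ratio that separated the groups.

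**Figure D2:**
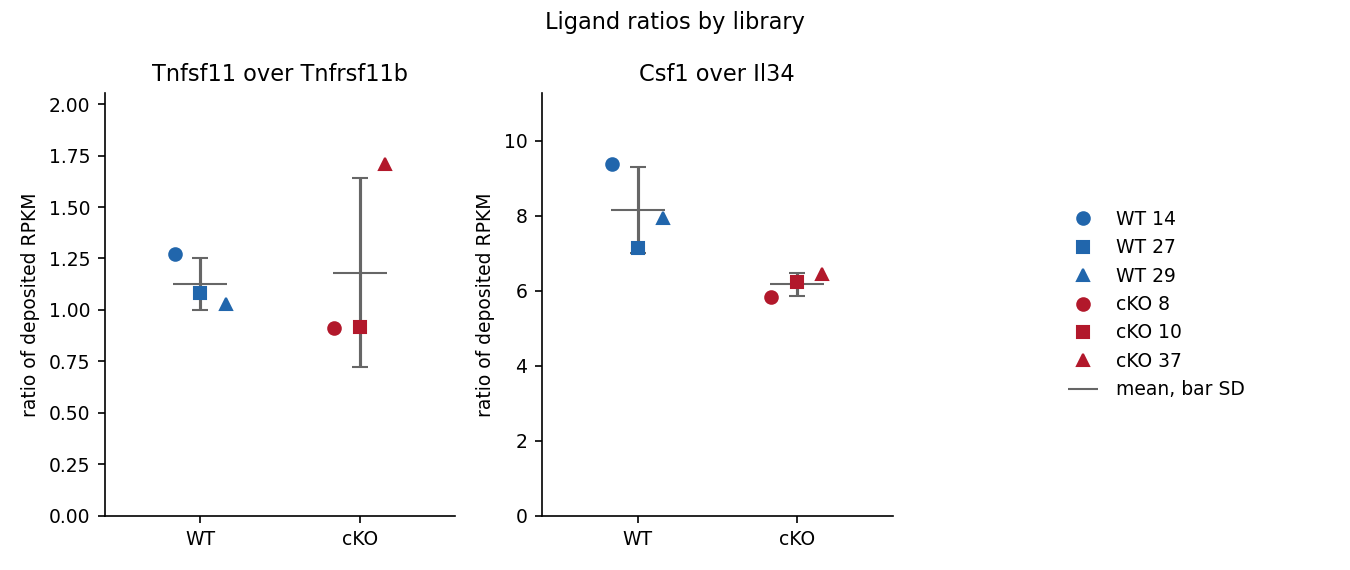
Ratio of deposited RPKM of Tnfsf11 to Tnfrsf11b (left) and of Csf1 to Il34 (right) by library (vertical axes from 0; WT in blue, cKO in red, bars for mean and SD, n = 3 per group). For Tnfsf11 over Tnfrsf11b, cKO 8 and cKO 10 lie below all WT libraries and cKO 37 at 1.71 above them, and for Csf1 over Il34 all cKO libraries (5.84 to 6.45) lie below all WT libraries (7.14 to 9.38).

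On the precursor side, Tnfrsf11a (chromosome 1, 105780723 to 105847981), the signalling receptor of RANKL, had values of 23.2, 30.2 and 24.2 CPM in WT (14, 27, 29) and 17.7, 21.6 and 20.5 CPM in cKO (8, 10, 37). Each cKO library was below each WT library, and WT 27 was the highest. The log2 difference of -0.38 ± 0.11 (25.9 ± 3.78 against 19.9 ± 2.03 CPM, 95% confidence interval -0.62 to -0.13) just missed the threshold (adjusted p = 0.0525). It passed in 5 of 15 alternatives (adjusted p over all of them from 0.013 to 0.167). Among them were DESeq2, the offset for GC content and gene length, and a threshold of 0.1, which an adjusted p of 0.0525 could not fail. Traf6 (chromosome 2, 101678440 to 101700974), the ubiquitin ligase that carries the signal of RANK, ran from 41.5 to 44.4 CPM in WT and from 40.3 to 41.3 in cKO. These ranges were narrow and nearly touched, and the log2 difference of -0.07 ± 0.06 had a 95% confidence interval of -0.19 to 0.06 (adjusted p = 0.495).

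The ligands of CSF1R did not move alike. Csf1 (chromosome 3, 107741048 to 107760469), the main growth factor of the macrophage lineage, stood at 142, 123 and 122 CPM in WT (14, 27, 29) and at 117, 129 and 141 CPM in cKO (8, 10, 37). The ranges covered each other almost entirely, and the log2 difference of -0.00 ± 0.08 had a 95% confidence interval of -0.19 to 0.18 (adjusted p = 0.994). Il34 (chromosome 8, 110741829 to 110805903), the alternative ligand best known from skin and brain, stood at 6.31, 7.19 and 6.37 CPM in the WT libraries and 8.31, 8.61 and 9.1 CPM in the cKO libraries in the same order. No cKO library reached down to the WT range. The rise was 1.31-fold (6.62 ± 0.487 against 8.67 ± 0.399 CPM, log2 0.39 ± 0.10, adjusted p = 0.0334).

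Leaving out any single library other than WT 27 ended the call on Il34 (adjusted p from 0.0691 to 0.117), at log2 values of 0.35 to 0.42. Its span is crossed by the antisense genes Gm15894 and Gm15895 in GENCODE. The sources used here do not say whether counting used strand, so reads of the opposite strand may be included. The epidermal and neural markers, tissues where Il34 is abundant, summed to 4.67 to 6.27 and 17 to 21.3 CPM in WT and to 3.8 to 5.59 and 12.9 to 15.4 CPM in cKO. Of 5 tested neural markers, Tubb3 fell, a call lost without WT 29, and the other 4 did not pass, with Rbfox3 (log2 0.63 ± 0.35) and Snap25 (0.71 ± 0.50) in the other direction. The part of such cells in the Il34 values was not tested. Csf1 remained the more abundant ligand throughout, at 9.38, 7.14 and 7.93 times the RPKM of Il34 in WT (14, 27, 29) and 5.84, 6.23 and 6.45 times in cKO (8, 10, 37). The log2 ratio on counts was lower by 0.39 in cKO (4.28 ± 0.20 against 3.89 ± 0.07, two-sided exact permutation p = 0.1, the smallest possible, and 0.2 after adjustment over the 6 ratios compared).

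Csf1r (chromosome 18, 61105572 to 61131139), the receptor of both ligands and a marker of the whole macrophage and osteoclast lineage, stood at 207, 264 and 204 CPM in WT (14, 27, 29) and at 161, 172 and 168 CPM in cKO (8, 10, 37). All cKO libraries were below all WT libraries, and they lay close together, whereas WT 27 was above the other WT libraries. The level fell by 25.6% (225 ± 33.8 against 167 ± 5.38 CPM, log2 -0.43 ± 0.10, 95% confidence interval -0.64 to -0.22, adjusted p = 0.0191). The call was lost without cKO 8 (adjusted p = 0.085) or cKO 37 (0.0654), with log2 values of -0.40 and -0.44.

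**Figure D3:**
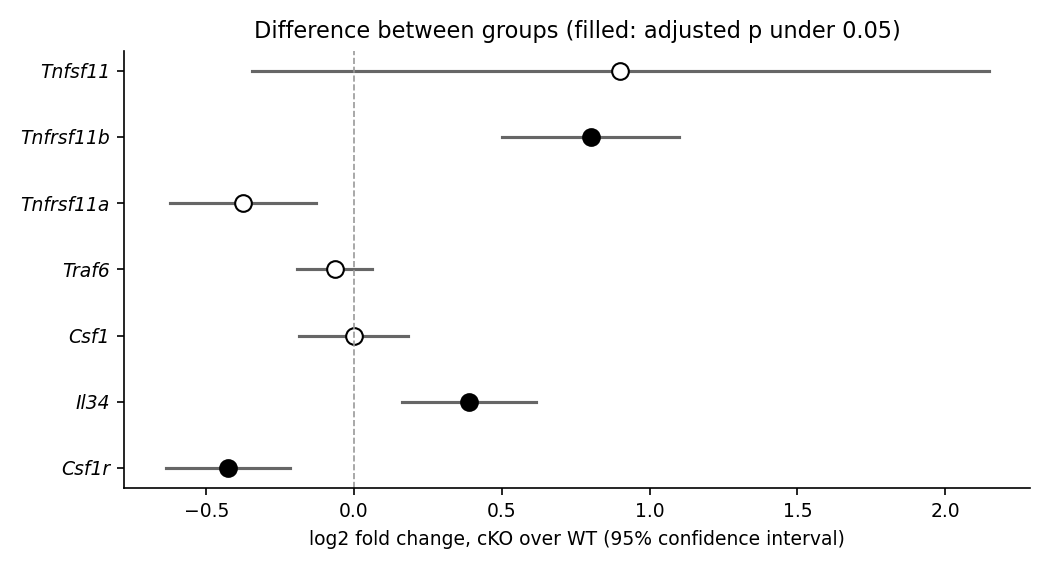
Log2 fold change, cKO over WT, of the 7 genes (horizontal axis; point: estimate of edgeR, line: 95% confidence interval, filled where the adjusted p is under 0.05). Tnfrsf11b and Il34 lie to the right of 0 and Csf1r to the left with intervals that leave out 0, that of Tnfrsf11a also leaves out 0 although it did not pass, the interval of Tnfsf11 is the widest (-0.35 to 2.15), and those of Csf1 and Traf6 are narrow and include 0.

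Both receptors are carried by myeloid cells, and their values were set beside markers of those cells. Of 15 osteoclast genes, 2 fell and 13 did not pass (13.3% called, close to the 12.4% of all genes), and 14 of 15 had lower values in cKO (median log2 -0.40, against 0.01 over all genes). All but Ostm1 were highest in WT 27, so these genes varied together, and their shared direction is not 14 separate observations. Acp5, the tartrate-resistant acid phosphatase of osteoclasts, fell by 0.56 ± 0.12 and Nfatc1, the transcription factor that RANKL induces to start osteoclast differentiation, by 0.48 ± 0.08, both as log2 values (adjusted p = 0.0172 and 0.00705). The fusion genes Dcstamp (-0.61 ± 0.16) and Ocstamp (-0.65 ± 0.18), the immunoreceptor Oscar (-0.65 ± 0.18) and the sialic acid lectin Siglec15 (-0.40 ± 0.13) did not pass (adjusted p = 0.0505, 0.063, 0.0543 and 0.0687). Acp5 was lost without cKO 8 or cKO 37. The number that fell was 1 without either of these libraries, 4 without WT 29, 4 with limma voom or the GC and length offset and 6 with DESeq2, which called 16.2% of all genes. Among 20 macrophage and monocyte genes, 2 fell and 18 did not pass (10% called), with a median of -0.02, and 1 was called higher with DESeq2 and without cKO 10. Laptm5, a lysosomal protein of blood cells, fell by 0.57 ± 0.12 and the integrin Itgam by 0.28 ± 0.07 (adjusted p = 0.0209 and 0.0264), whereas Cd68 (-0.48 ± 0.16), Ptprc (-0.28 ± 0.11), Mpeg1 (0.41 ± 0.16) and Emr1 (-0.25 ± 0.11), the gene of F4/80, did not pass (adjusted p = 0.107 to 0.179). Without cKO 8 neither Laptm5 nor Itgam nor any other of these genes was called lower in edgeR, and 1 was called lower without WT 14, WT 27, WT 29 or cKO 10. Laptm5 was also lost without cKO 37.

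Summed osteoclast markers were 3960, 4970 and 3550 CPM in WT (14, 27, 29) and 2890, 3590 and 3080 in cKO (8, 10, 37), so that cKO 10 slightly exceeded WT 29. Summed macrophage markers overlapped more, at 526, 620 and 549 CPM in WT and 497, 504 and 543 in cKO. Relative to the sum of macrophage markers, Csf1r was lower in cKO by 0.29 on the log2 scale (-1.34 ± 0.10 in WT against -1.62 ± 0.07 in cKO, two-sided exact permutation p = 0.1, the smallest possible, 0.2 adjusted over the 6 ratios), and every cKO library was below every WT library. With the geometric mean of the markers in place of the sum the difference was -0.36 and the groups overlapped (two-sided exact permutation p = 0.2). Relative to the geometric mean of the osteoclast markers, a ratio added after the data were seen, the difference was -0.06 (1.85 ± 0.06 against 1.79 ± 0.09, two-sided exact permutation p = 0.4, 0.6 adjusted). In ratios also added after the data were seen, Tnfrsf11a was lower by 0.24 relative to macrophage markers (two-sided exact permutation p = 0.1, 0.2 adjusted) and, with their geometric mean, by 0.31 (p = 0.3). Relative to osteoclast markers it was lower by 0.01 (two-sided exact permutation p = 0.9, 1 adjusted). The part of the marker levels in the receptor values was not tested.

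**Figure D4:**
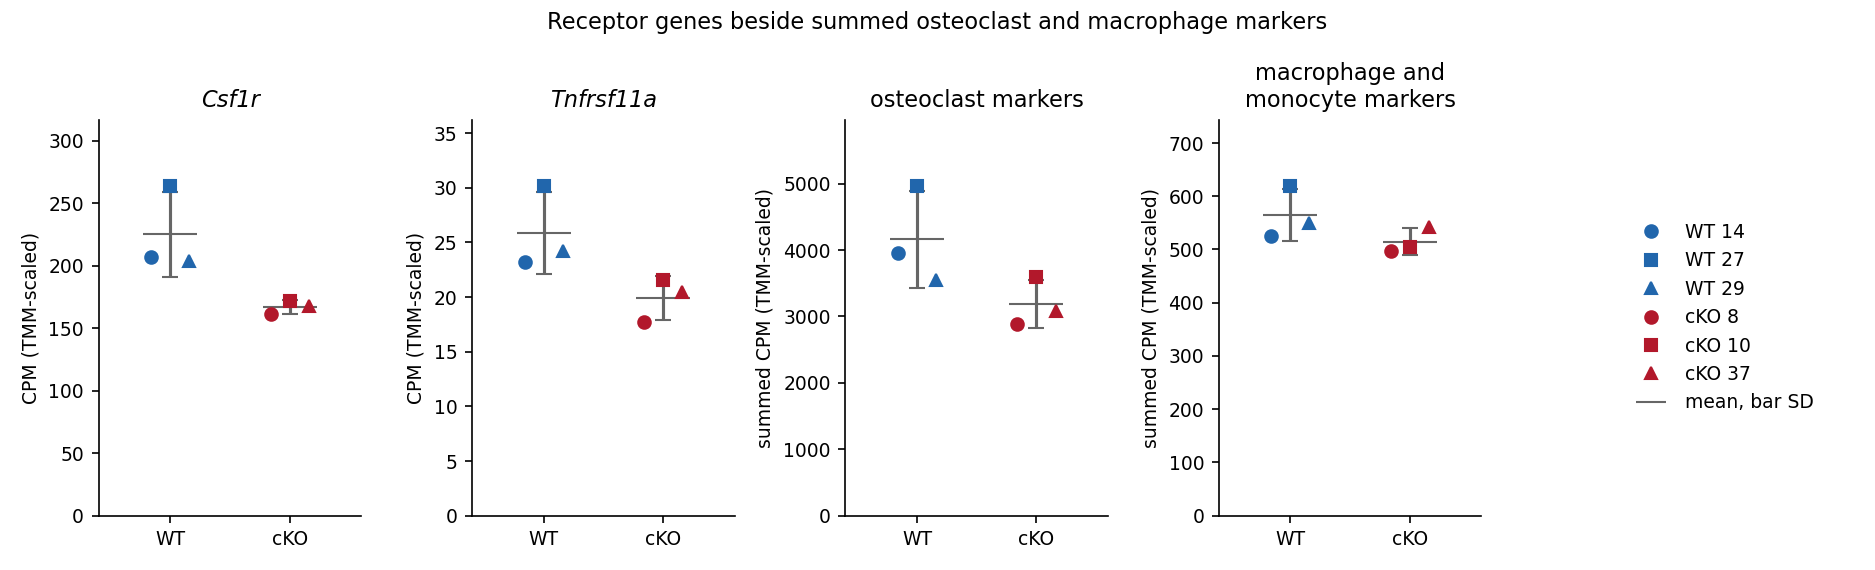
CPM of Csf1r and Tnfrsf11a and summed CPM of 15 osteoclast and 20 macrophage and monocyte markers by library (vertical axes from 0; WT in blue, cKO in red, bars for mean and SD, n = 3 per group). WT 27 is the highest library in all 4 panels, and the groups overlap for both marker sums but not for the receptors.

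Downstream of RANK, signalling genes moved in both directions. Of 28 adaptors, kinases and transcription factors of this pathway, 4 rose, 9 fell and 15 did not pass (46.4% called, against 12.4% of all genes, median log2 -0.06). With testing limited to genes with a mean CPM of at least 1, 15.3% of all genes were called. The list was chosen with earlier results of these data known, so its share is a description and no test of the pathway. Fos and Jun, the AP-1 factors needed for osteoclast differentiation and also early response genes of most cells, fell from 1400 ± 105 to 832 ± 95.1 CPM and from 395 ± 23 to 229 ± 42.3 CPM (log2 -0.75 ± 0.10 and -0.79 ± 0.13, adjusted p = 0.00261 and 0.00762). Nfatc1 fell as given above, from 155 ± 17.2 to 111 ± 7.26 CPM, and Prdm1, a repressor of inhibitors of osteoclast formation, from 29.4 ± 1.78 to 19.5 ± 3.13 CPM (log2 -0.59 ± 0.11, adjusted p = 0.00854). Tab1, a partner of the kinase TAK1 that acts after TRAF6, rose by 0.37 ± 0.07 and Ikbkg, the regulatory subunit of the IkB kinase, by 0.28 ± 0.06 (adjusted p = 0.0076 and 0.0123). The rest were chosen after their values were seen. Nfkb2, the precursor of p52 (-0.52 ± 0.11), Map3k14, the kinase that starts its processing (-0.30 ± 0.07), the inhibitor Nfkbia (-0.49 ± 0.11), the subunit Rela (-0.21 ± 0.06) and the kinase Src (-0.30 ± 0.08) fell, and Map2k7 (0.24 ± 0.06) and Map3k7, which encodes TAK1 (0.23 ± 0.06), rose.

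Most of these genes are expressed in many cell types, so their counts do not show which cells changed. Fos, Jun, Nfatc1 and Tab1 passed under all 15 alternatives, and Prdm1 and Ikbkg under all but that without cKO 8 (adjusted p = 0.0521 and 0.0572). Src was lost in 8 of the 15, Rela and Map3k7 in 7, Map2k7 in 4, Nfkb2 in 3, and Nfkbia and Map3k14 in 2. Without cKO 8 only 1 of the pathway rose and 3 fell, and without cKO 10 it was 2 and 5. Without WT 14 or WT 29 there were 2 that rose. Over all genes the number called fell as well, from 1997 to 586 without cKO 8 and 783 without WT 29.

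In the costimulatory pathway of immunoreceptor adaptors, 1 of 11 tested genes fell and 10 did not pass (9.09% called, against 12.4% of all genes). This was the kinase Syk, at 29.2 ± 2.88 against 21.2 ± 2.32 CPM (log2 -0.46 ± 0.09, adjusted p = 0.013), a call lost without cKO 8 (0.0555), and 2 genes of this list were called lower without WT 29 or cKO 37. After CSF1R, 2 of 18 signalling genes fell and 16 did not pass (11.1% called, median -0.13). They were the inositol phosphatase Inpp5d (-0.37 ± 0.08, adjusted p = 0.0189) and the tyrosine phosphatase Ptpn6 (-0.43 ± 0.12, adjusted p = 0.0356), both of which restrain signalling in myeloid cells. Inpp5d and Ptpn6 were lost without WT 27, WT 29 or cKO 8, and Ptpn6 also without cKO 10 and with limma voom. Of 7 other receptors and ligands of the axis, 1 rose and 6 did not pass (14.3% called). It was Tnfsf10, the death ligand TRAIL that OPG also binds, at 9.84, 10.5 and 10.5 CPM in WT (14, 27, 29) and 16.2, 15 and 13.3 CPM in cKO (8, 10, 37) (log2 0.53 ± 0.09, adjusted p = 0.00713). The groups did not overlap, and it passed under all 15 alternatives.

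Osteoblasts set Tnfsf11 and Tnfrsf11b in response to hormones, prostaglandins, cytokines and Wnt signals. Of 38 genes of these inputs, 3 rose, 4 fell and 31 did not pass (18.4% called, against 12.4% of all genes, median 0.00). Over all genes, 5.96% were called higher and 6.45% lower. Vdr, the vitamin D receptor and a known activator of Tnfsf11, had a log2 fold change of -0.50 ± 0.08 (adjusted p = 0.00394) and fell, beside the Wnt coreceptor gene Lrp5 (-0.26 ± 0.07, adjusted p = 0.0311), the cytokine gene Il6 (-1.16 ± 0.31, adjusted p = 0.0496) and, named after its value was seen, Tgfb1 (-0.26 ± 0.08, adjusted p = 0.0497). Il1r1, the interleukin 1 receptor, rose by 0.47 ± 0.09, the oncostatin M receptor Osmr by 0.59 ± 0.12 and the Wnt effector Lef1 by 0.49 ± 0.10 (adjusted p = 0.00953, 0.0173 and 0.0145). Vdr and Il1r1 passed under all 15 alternatives. Il6 was lost in 7 of them and Tgfb1 in 9, Lrp5 without WT 14, WT 27, WT 29 or cKO 10, Osmr without WT 27, WT 29 or cKO 10, and Lef1 without WT 29 or cKO 8. The number that fell was 2 with upper-quartile scaling and without cKO 8 or cKO 10, and 1 without WT 14 or WT 29, and without WT 29 only 1 rose.

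**Figure D5:**
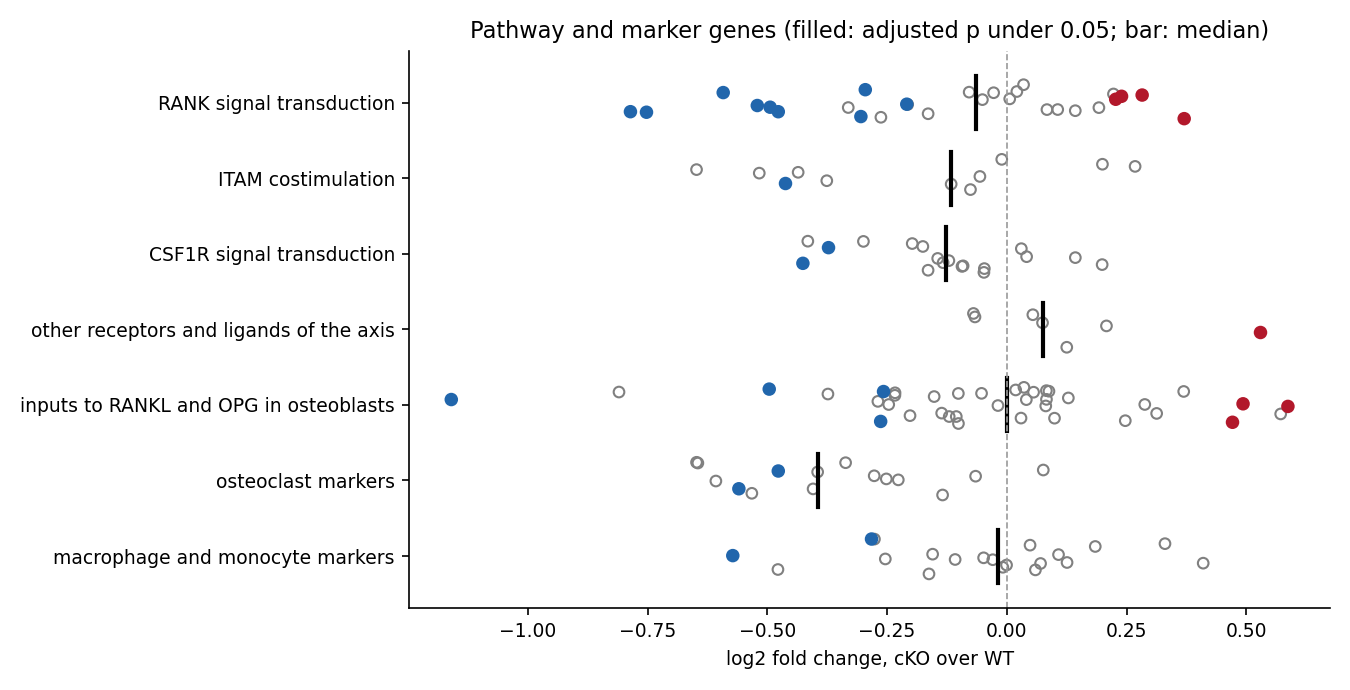
Log2 fold change, cKO over WT, of each tested gene of the pathway and marker lists (points; filled where the adjusted p is under 0.05, red higher and blue lower, jittered vertically), with the median of each list as a black bar. The osteoclast markers have the lowest median (-0.40), and the RANK pathway has the most called genes, 9 lower and 4 higher.

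Genes with the closest profile over the 6 libraries were sought by Pearson's r on log2 CPM among the 12489 genes whose log2 CPM averaged 1 or more, as a description of libraries that share depth and group. For Tnfrsf11b these were Zmym2 (r = 0.997), Mff (0.994) and Jmjd4 (0.990), and 160 genes had r over 0.95. Tnfsf11, whose profile is set by cKO 37, was closest to Kcnj2 (r = 0.993), Btf3 (0.992) and Serinc3 (0.992). Csf1r was closest to Noa1 (0.997), Nfkbib (0.997) and Abhd11 (0.994), Tnfrsf11a to Tuba1c (0.998), Rac2 (0.995) and Atp5g3 (0.993), and Il34 to 5730403B10Rik (0.994), Zfyve1 (0.994) and Plac8 (0.993). For Traf6 they were Sf3b5 (0.985), Usf2 (0.985) and Cxxc1 (0.982), and for Csf1 Ccnjl (0.982), Rassf1 (0.978) and Tmbim1 (0.973). Among the 7 themselves, r was highest between Tnfrsf11a and Csf1r (0.959) and between Traf6 and Csf1r (0.911), and it was 0.873 between Tnfsf11 and Tnfrsf11b. The value of 0.959 is not particular to its pair, since 115 of the 12489 genes had r over 0.95 with Csf1r and 112 with Tnfrsf11a. For the values of 0.911 and 0.873 no such count was made.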

How the data were processed

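RNA-seq of 6 mouse calvaria libraries was analysed. The submitters' processing notes name bcl2fastq, TopHat2 (2.0.6), HTSeq and the mm10 genome. The deposited count values are whole numbers per gene and all even, and halving them was one alternative. The RPKM values deposited by the authors were used only to compare levels between genes. The sources used here give neither the annotation nor the use of strand.

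Counts were tested in R 4.3.3 with edgeR 4.0.16 (TMM scaling, filterByExpr with a minimum count of 10, robust quasi-likelihood F test, Benjamini-Hochberg adjustment over 16089 genes, threshold 0.05). Entries sharing an identifier (69) were kept apart. Errors after ± are SDs beside means and standard errors beside log2 fold changes, with 95% confidence intervals from the same model. Ratios were compared by exact permutation over libraries. The edgeR fit was also run on simulated counts with planted changes. Those counts held no differences in tissue content between libraries, so that run does not vouch for the calls made here. The alternatives were scaling by RLE or by upper quartile, testing without the low-count filter, a mean CPM of at least 1, halved counts, DESeq2 1.42.0, limma 3.58.1 voom, a threshold of 0.1, leaving out each library, and an added offset for GC content and length. The threshold of 0.1 used the same fit, so a gene called at 0.05 could not fail it.

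The 7 genes and the 15 gene lists were chosen with earlier results of these data known. Named genes are the 7, Ezh2, in each pathway list up to 6 called genes with the smallest p, in the osteoclast and macrophage lists the 6 with the smallest p, and for each of the 7 the 3 genes with the highest r. Of 204 list entries, 1 symbol was not matched, and 2 were matched by an older symbol. Libraries of 1 group had r of 0.989 to 0.992 on log2 CPM and differed by more than counting noise (chi-square per degree of freedom 26.6 to 60.3), so none was treated as the same library deposited again. This does not show that they came from separate animals.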

Additional observations from a re-analysis of the deposited data

How the results depend on the processing

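Tnfrsf11b kept its call under all 15 alternatives. The number of the 7 genes called higher ranged from 1 to 2, and the number called lower from 0 to 2, when each library was left out in turn. The number called lower was 2 with no low-count filter, with DESeq2, at a threshold of 0.1 and with the GC and length offset, since Tnfrsf11a then passed. Csf1 has no direction that can be read: its log2 value was -0.0013 as reported, 0.0257 with upper-quartile scaling, 0.00701 at a mean CPM of at least 1, 0.00209 on halved counts and 0.0142 with the GC and length offset, and ran from -0.0746 to 0.0742 with each library left out. The difference in log2 ratio of Tnfsf11 to Tnfrsf11b ran from -0.29 to 0.16 with each library left out. That of Csf1 to Il34 ran from -0.48 to -0.29 and that of Csf1r to macrophage markers from -0.33 to -0.23. The ratio of Tnfrsf11a to osteoclast markers differed by 0.003 with summed markers and by -0.056 to 0.04 with each library left out. The correlation of Csf1 with Rassf1 was 0.819 with upper-quartile scaling.

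Over all genes, the share of calls that were higher was 48% as reported, 60.9% after upper-quartile scaling and 33.1% after the offset. All genes called numbered 1127, 1169 and 783 without WT 14, WT 27 and WT 29, and 586, 1333 and 1985 without cKO 8, cKO 10 and cKO 37, against 1997, and 3277 at a threshold of 0.1. Among the list counts that moved by over 1.5 times, genes called lower in the costimulatory list were 3 with DESeq2 and 2 with the offset or at a threshold of 0.1, against 1. In CSF1R signalling they were 4 with DESeq2, the offset or a threshold of 0.1 and 1 with limma voom or without cKO 10, against 2, and 1 gene was called higher with upper-quartile scaling, at a mean CPM of at least 1, at a threshold of 0.1 and without cKO 37, against 0. Osteoclast genes called lower were 6 at a threshold of 0.1, against 2. No paired analysis was possible because the groups share no library number. With 3 libraries per group an exact permutation test cannot go below 0.1, and Il34, with deposited counts of 462 to 700 per library, is the most thinly counted of the 7. Since all deposited counts are even, these need not be numbers of reads.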

Other observations

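The relatives of RANKL, RANK and OPG were examined by name after the data were seen. Of 35 tested genes of the TNF ligand and receptor families outside the 7, 6 rose (17.1% called, against 12.4% of all genes). None of the 35 passed as lower in edgeR, and 1 passed as lower in DESeq2 and 0 in limma voom. At an unadjusted p under 0.05 in edgeR, 3 were lower (Tnf, Relt and Tnfrsf13b), and Tnfsf13b was higher beside the 6 that rose. Over all genes 29.1% pass that limit in either direction. The family genes that pass it, both directions together, are no larger a share of the 35. In edgeR, 1 was called lower with RLE scaling, with no low-count filter, with the GC and length offset and without WT 14, WT 27 or cKO 37, and 2 at a threshold of 0.1. The nearest was the cytokine gene Tnf, at 2.82 ± 0.71 CPM in WT and 1.66 ± 0.337 in cKO (log2 -0.76 ± 0.23, adjusted p = 0.0501). Eda2r, a receptor of an ectodysplasin isoform and a known p53 target, stood at 18.7, 15.7 and 19.1 CPM in WT 14, WT 27 and WT 29 and at 27.7, 24.8 and 27.7 CPM in cKO 8, cKO 10 and cKO 37 (log2 0.59 ± 0.09). The death receptor gene Fas rose by 0.59 ± 0.09 on the log2 scale, from 7.48 ± 0.468 to 11.2 ± 0.422 CPM, and both passed under all 15 alternatives, as did Tnfsf10. Tnfrsf19, a receptor abundant in mesenchymal progenitors, rose from 455 ± 33 to 558 ± 5.11 CPM (log2 0.29 ± 0.08), Tnfrsf18 by 0.54 ± 0.14 and Cd40 by 0.45 ± 0.13. These 3 calls were lost when single libraries were left out, Cd40 without any of the 6, Tnfrsf18 without any but cKO 10, and Tnfrsf19 without WT 27, WT 29, cKO 8 or cKO 10. Cd40 was also lost without the low-count filter. The number that rose was 3 without WT 27, WT 29 or cKO 8.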
